A study of Mus musculus with 8 samples.

Results

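The genes described here are 38 genes of the cell cycle and of DNA replication, taken by name from the annotation of the array, out of 18193 genes measured. They are listed by name, in a list drawn up with earlier results of these data known, and all 38 were measured, with no filter on dim genes. Each gene was read from 1 probe set, the one with the highest mean over all arrays among those annotated to that gene alone. The samples were CD11b+ cells, that is, cells carrying the integrin chain Itgam, which is found on neutrophils, monocytes and macrophages. They came from the mouse strains NOD, which develops autoimmune diabetes spontaneously, and NOD.Idd3, a NOD line congenic for the diabetes locus Idd3.

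Cells of each strain were kept for 4 h at 37 degrees in medium alone (unstimulated) or with peptidoglycan (PGN), a polymer of the bacterial cell wall, at 5 µg/ml. This gave 4 groups: unstimulated NOD, NOD with PGN, unstimulated NOD.Idd3 and NOD.Idd3 with PGN. Each group had 2 arrays, numbered 1 and 2 as biological replicates, 8 arrays in all. Whether a number stands for 1 mouse or a pool is not stated, and p-values therefore reflect the spread among these 8 samples alone. No source used here states the tissue, age or sex of the mice. The design sets PGN against medium in each strain, and the strains against each other in each condition.

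Dividing cells copy their DNA once and then part the copies. The MCM proteins are loaded on replication origins by Cdc6 and, with Cdc45, unwind the DNA that Pcna-bound polymerases copy, while ribonucleotide reductase (Rrm1, Rrm2) and thymidylate synthase (Tyms) supply deoxynucleotides. Mitosis is then driven by cyclin B with Cdk1 and by the Aurora and Polo kinases, and ends when Cdc20 and Ube2c direct the destruction of mitotic proteins and the cell is cut by the machinery of cytokinesis. In the myeloid lineage division belongs mostly to precursors, and mature neutrophils no longer divide. In a bulk sample of this kind, fewer dividing cells and less RNA per dividing cell cannot be told apart.

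Values are log2 intensities, so that a difference of 1 is a doubling. A gene was called at a Benjamini-Hochberg adjusted p under 0.05 over all 18193 genes in limma, with its standard error (SE) beside each difference. The labelled cell type was looked at on 7 myeloid genes (Itgam, Lyz2, Tyrobp, Fcer1g, Csf1r, Cd14, Ptprc). Their summed intensity lay between 72724 and 92779 on every array. That sum rests mostly on bright genes such as Lyz2 (mean 13.99) and does not measure purity. Itgam itself (mean 8.57) was lower with PGN in every pair of same-numbered arrays. Its difference averaged over the strains was -0.48 (SE 0.19, limma, Benjamini-Hochberg adjusted p = 0.163). The arrays numbered 1 share a date in their names. Over all genes, the deviations of same-numbered arrays correlated between every pair of groups, with r from 0.17 to 0.42. For that reason results are also given with the replicate number as a block where this changes a call, and within each number. The 38 genes were lowest on one array in particular. The NOD array with PGN numbered 1 held the lowest of the 8 values for 24 of the 38 genes, and their summed intensity ran from 12662 there to 21539 on the unstimulated NOD array numbered 2.

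**Figure D1:**
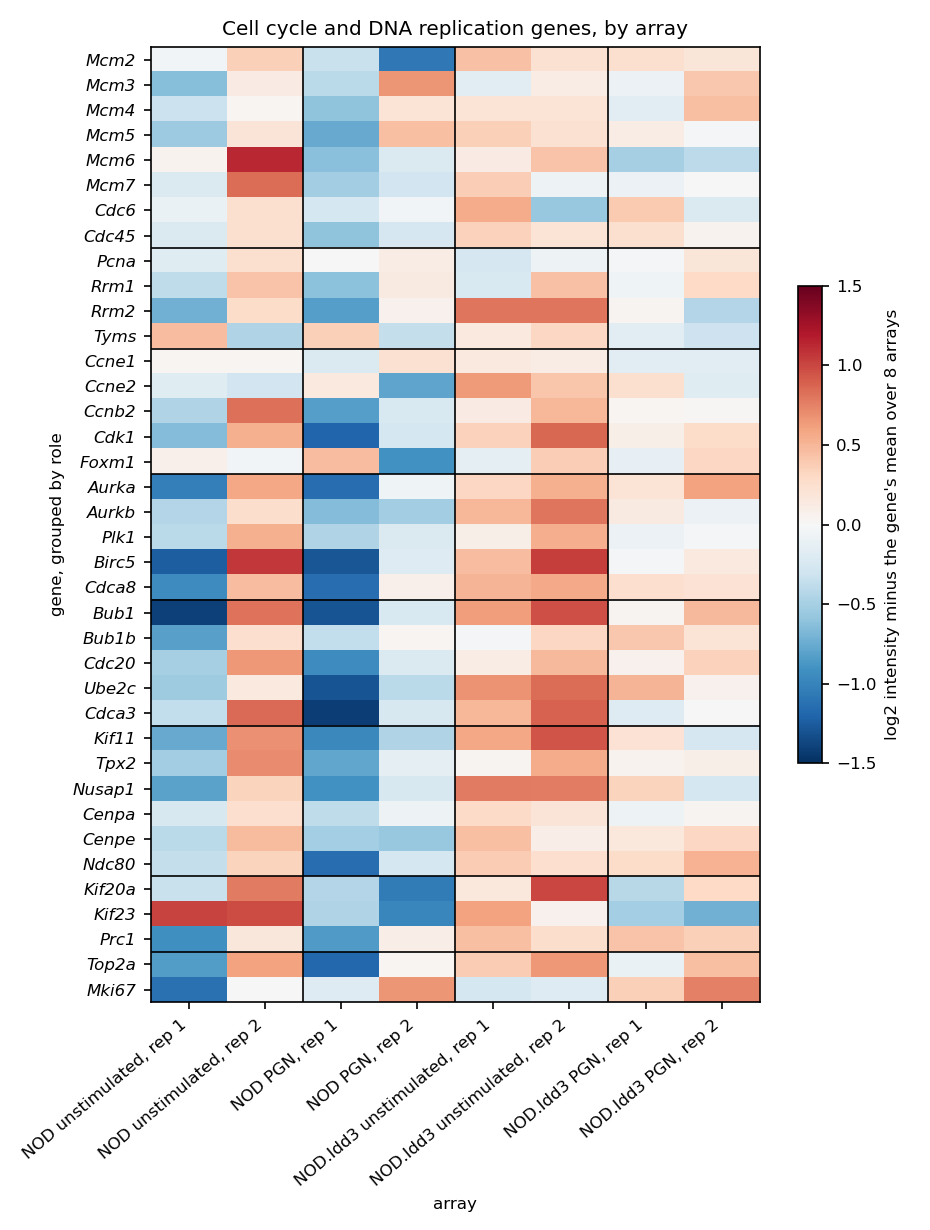
Heat map of the 38 genes (rows, grouped by role) on the 8 arrays (columns, by strain, condition and replicate number); colour is the log2 intensity minus the gene's mean over the 8 arrays. The column of the NOD array with PGN numbered 1 lies mostly on the low side of the scale, with the lowest value of 24 of the 38 genes.

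With PGN, averaged over the strains, 33 of the 38 genes had lower means and 5 had higher means (Mki67, Mcm3, Bub1b, Pcna and Prc1). The median difference was -0.34, against 0.05 over all genes, of which 43.8% were lower. Only Kif23 was called, 1 gene of 38, while 11.3% of all genes were called in this comparison and 6.4% were called as lower. At an unadjusted p under 0.05 there were 9 of the 38 genes, 8 lower and 1 higher, beside 25% of all genes. The share called was thus no larger than among all genes, while the direction was mostly one way. In 19 of the 38 genes PGN was below medium in all 4 pairs of same-numbered arrays, which held for 19.3% of all genes.

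Kif23, a kinesin of the central spindle needed for cytokinesis, fell with PGN. In NOD it read 9.64 and 9.61 on the unstimulated arrays 1 and 2, and 8.18 and 7.65 with PGN. In NOD.Idd3 it read 9.22 and 8.69 unstimulated and 8.11 and 7.90 with PGN. All 4 arrays with PGN were below all 4 without it. Averaged over the strains it fell by 1.33 (SE 0.19, limma with Benjamini-Hochberg adjustment, adjusted p = 0.00299), and by 1.71 in NOD (SE 0.26, adjusted p = 0.0122). Over the mean of its 3 probe sets it fell by 0.85. One of the 3 is dim and differed by 0.20 in the other direction, and the other two differed by -1.33 and -1.41. Among the 38 genes, Kif23 was the one called in NOD, where 3.94% of all genes were called. That call was lost without the unstimulated NOD array numbered 2 (limma, Benjamini-Hochberg adjusted p = 0.0825) and without the NOD array with PGN numbered 2 (adjusted p = 0.084).

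In NOD.Idd3 no member was called, beside 3.14% of all genes. Kif23 was lower by 0.95 there (a log2 difference of -0.95, SE 0.26, limma, Benjamini-Hochberg adjusted p = 0.106), and passed with the replicate block (adjusted p = 0.0337), as did 6.63% of all genes. The other 2 genes of cytokinesis were not called. Kif20a, a kinesin that carries the passenger complex to the spindle midzone, read 6.40 and 7.51 in unstimulated NOD and 6.30 and 5.69 with PGN, and 6.89 and 7.74 in unstimulated NOD.Idd3 and 6.32 and 7.03 with PGN. Kif20a was lower with PGN in all 4 pairs of same-numbered arrays, though the arrays overlapped. Its averaged difference of -0.80 (SE 0.31) did not pass (limma, Benjamini-Hochberg adjusted p = 0.153). Prc1, which bundles the midzone microtubules that Kif23 acts on, differed by 0.01 (SE 0.28).

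Of the 8 genes of replication origins and the helicase, 7 were lower with PGN and none was called. Mcm6, a subunit of the MCM ring, came closest. It read 8.39 and 9.47 in unstimulated NOD, 7.72 and 8.12 with PGN, 8.46 and 8.77 in unstimulated NOD.Idd3, and 7.85 and 7.95 with PGN. As for Kif23, the arrays with and without PGN did not overlap, which held for these 2 of the 38 genes and for 9.41% of all genes in this direction. Its difference was -0.86 (SE 0.24, limma, Benjamini-Hochberg adjusted p = 0.0538). It passed with the replicate block (adjusted p = 0.0132), and in NOD alone too (a difference of -1.01, adjusted p = 0.0468 with the block, where 8.72% of all genes passed).

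The other MCM subunits did not follow Mcm6 alike. Mcm7 read 9.01 and 10.06 in unstimulated NOD, 8.71 and 8.94 with PGN, 9.60 and 9.15 in unstimulated NOD.Idd3, and 9.15 and 9.22 with PGN. The unstimulated NOD array numbered 2 was high, the groups overlapped, and the difference was -0.45 (SE 0.24). Mcm2 differed by -0.49 (SE 0.20), Mcm5 by -0.11 (SE 0.27), Mcm4 by -0.05 (SE 0.22) and Mcm3 by 0.29 (SE 0.28). The other probe set of Mcm4, nearly as bright (mean 9.06 against 9.09), differed by -0.57, so the value of Mcm4 depends on the probe set. Cdc6, which loads the ring, differed by -0.06 (SE 0.26), and Cdc45, which activates it, by -0.29 (SE 0.17).

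The genes of nucleotide supply and the sliding clamp held 3 lower and 1 higher means, with none called. Pcna, the clamp, read 12.40 and 12.82 in unstimulated NOD, 12.57 and 12.68 with PGN, 12.33 and 12.51 in unstimulated NOD.Idd3, and 12.56 and 12.76 with PGN. The groups overlapped, and the difference with PGN was 0.13 (SE 0.16). Rrm2, the regulated subunit of ribonucleotide reductase, differed by -0.16 (SE 0.39) in NOD and -1.0 (SE 0.39) in NOD.Idd3, and its partner Rrm1 by -0.26 and 0.01 (SE 0.37 each). Tyms was dim on every array, between 4.08 and 4.98, near the lower quartile of the array (4.28 to 4.57), so its value bounds little.

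Among cyclins, Cdk1 and the mitotic transcription factor Foxm1, all 5 means were lower and none was called. Cdk1, the kinase that starts mitosis, read 7.33 and 8.51 in unstimulated NOD, 6.79 and 7.71 with PGN, 8.32 and 8.83 in unstimulated NOD.Idd3, and 8.07 and 8.25 with PGN. Each PGN array was below its same-numbered partner, but the difference of -0.54 (SE 0.30) was under the gap between replicates in NOD. Ccnb2, a cyclin B that partners Cdk1, differed by -0.50 (SE 0.28), while the G1/S cyclins Ccne1 and Ccne2 differed by -0.15 (SE 0.15) and -0.29 (SE 0.22). Foxm1 differed by -0.13 (SE 0.29).

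All 5 genes of the mitotic kinases and the chromosomal passenger complex had lower means with PGN, and none was called. Aurkb, the kinase of that complex, read 6.01 and 6.71 in unstimulated NOD, 5.80 and 5.94 with PGN, 6.95 and 7.25 in unstimulated NOD.Idd3, and 6.58 and 6.37 with PGN. It was lower with PGN in all 4 pairs, by 0.56 on average (a log2 difference of -0.56, SE 0.19, limma, Benjamini-Hochberg adjusted p = 0.103). Birc5 (survivin), another subunit, read 7.88 and 10.17 in unstimulated NOD, 7.83 and 8.92 with PGN, 9.58 and 10.15 in unstimulated NOD.Idd3, and 9.09 and 9.26 with PGN. Its unstimulated NOD arrays lay further apart than any of its group means, and the difference was -0.67 (SE 0.46). Aurka, Plk1 and the subunit Cdca8 differed by -0.20 (SE 0.36), -0.38 (SE 0.23) and -0.30 (SE 0.34).

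In the spindle checkpoint and anaphase-promoting group 4 of 5 means were lower. Cdca3, which promotes the destruction of the mitosis inhibitor Wee1, read 7.44 and 8.65 in unstimulated NOD, 6.40 and 7.56 with PGN, 8.31 and 8.69 in unstimulated NOD.Idd3, and 7.61 and 7.80 with PGN. Every PGN array was below its same-numbered partner although the groups overlapped. The difference of -0.93 (SE 0.32) did not pass without the block (limma, Benjamini-Hochberg adjusted p = 0.11) and passed with it (adjusted p = 0.0165). Ube2c, the ubiquitin-conjugating enzyme of the anaphase-promoting complex, differed by -0.56 (SE 0.24), its activator Cdc20 by -0.37 (SE 0.28), and the checkpoint kinases Bub1 and Bub1b by -0.50 (SE 0.45) and 0.14 (SE 0.24).

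The 6 spindle and kinetochore genes all had lower means. Cenpa, the histone of the centromere, read 8.72 and 9.21 in unstimulated NOD, 8.58 and 8.88 with PGN, 9.24 and 9.15 in unstimulated NOD.Idd3, and 8.88 and 9.0 with PGN, a difference of -0.24 (SE 0.17). The spindle motor Kif11 differed by -0.73 (SE 0.31) and the microtubule bundler Nusap1 by -0.54 (SE 0.28). Tpx2, which activates Aurka, differed by -0.39 (SE 0.28), and the kinetochore genes Cenpe and Ndc80 by -0.31 (SE 0.21) and -0.30 (SE 0.24). Another probe set of Tpx2, nearly as bright (mean 6.96 against 7.22), differed by -1.03, so the value of Tpx2 depends on the probe set. None of the 6 was called from its chosen probe set. Over the mean of its 3 probe sets Cenpa differed by -0.57 and passed (limma, Benjamini-Hochberg adjusted p = 0.0396), beside 11.7% of all genes. Its other probe sets are dim (means 4.93 and 4.68).

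Mki67, whose product coats mitotic chromosomes and is the antigen Ki-67 used to mark dividing cells, went the other way. It read 8.93 and 10.05 in unstimulated NOD, 9.85 and 10.71 with PGN, 9.79 and 9.86 in unstimulated NOD.Idd3, and 10.40 and 10.81 with PGN. Every PGN array was above its same-numbered partner, which among the 38 genes was true of Mki67 and Mcm3 and among all genes of 20.3%. Its difference was 0.79 (SE 0.28, limma, Benjamini-Hochberg adjusted p = 0.119; adjusted p = 0.0238 with the replicate block), and it was of like size in the strains (0.80 and 0.79). Mki67 has a single probe set here, so no other probe set bears on this value. Top2a, the topoisomerase that untangles replicated chromosomes, differed by -0.40 (SE 0.36).

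**Figure D2:**
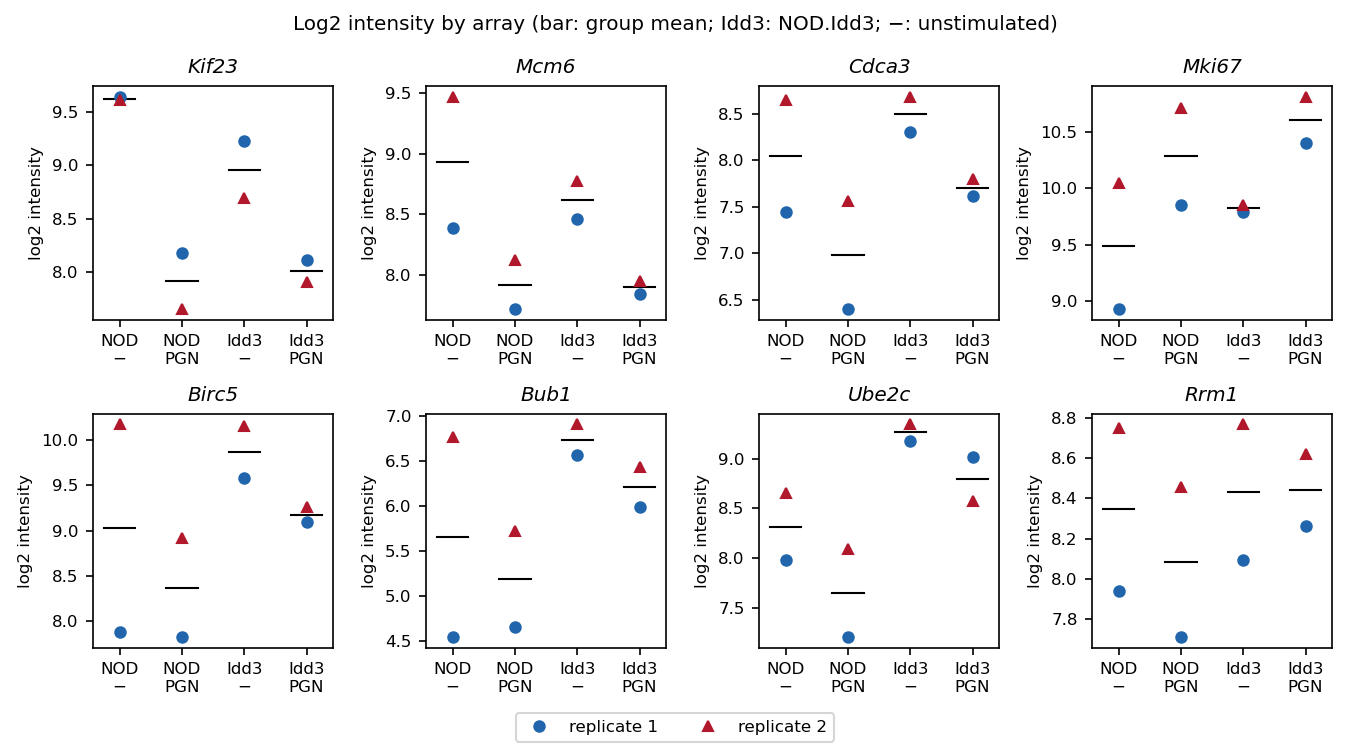
Log2 intensity (y axis) of 8 of the genes on each array, by group (x axis; Idd3 is NOD.Idd3 and the minus sign is unstimulated); circles are arrays numbered 1, triangles arrays numbered 2 and bars group means. Kif23 and Mcm6 have all arrays with PGN below all without it, and Birc5 and Bub1 have NOD arrays numbered 1 well below those numbered 2.

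With the replicate block 4 of the 38 genes were called for the averaged PGN effect, Kif23, Mcm6 and Cdca3 lower and Mki67 higher, beside 16.9% of all genes. Leaving out the unstimulated NOD array numbered 1 gave 8 genes called lower (Aurkb, Birc5, Ccnb2, Cdca3, Kif11, Kif23, Mcm6 and Mcm7), beside 11.8% of all genes in either direction. Leaving out its partner numbered 2 gave Kif23 called lower and Mki67 called higher, beside 6.89% of all genes. The median over the 38 genes moved with these arrays as well, to -0.61 and -0.14. In markers of other cells, PGN lowered 3 of 6 measured neutrophil genes (Cxcr2, Mmp8 and Mmp9). Of 8 neutrophil precursor genes 7 had lower means with PGN, beside 43.8% of all genes, with a median difference of -0.21. None of the 8 was called. Their summed intensity on arrays 1 and 2 was 53497 and 67027 in unstimulated NOD and 45729 and 60933 with PGN. In NOD.Idd3 it was 61162 and 78106 unstimulated and 58515 and 56288 with PGN. Of 5 platelet genes 2 were called lower (Pf4 and Ppbp) and none higher, with 3 means lower and 2 higher. Of 7 measured T and NK cell genes 1 was called lower (Cd3d), with 5 means lower and 2 higher. Of 6 genes that mark plasma cells 3 were called higher (Sdc1, Prdm1 and Irf4) and none was called lower. By their means 4 of the 6 were higher and 2 lower. Their summed intensities were 11174 to 12548 unstimulated and 16657 to 25746 with PGN. Of 5 measured erythroid genes 1 was called higher (Tfrc), with 4 means higher and 1 lower. With the replicate block 2 of 5 measured B cell genes and 1 of the 7 myeloid genes (Itgam) were called lower, beside 16.9% of all genes. The neutrophil list then held 4 genes that fell. The T and NK cell list held 2 that fell and 1 that rose, Gzma, a difference of 1.23. Their part in the result was not tested.

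The PGN effects of the strains were then set against each other. The median over the 38 genes was -0.42 in NOD, with 33 lower beside 47.1% of all genes, and -0.27 in NOD.Idd3, with 30 lower beside 44.4%. The difference between the effects was tested directly. No member passed, nor did any of the 18193 genes (0% called). At an unadjusted p under 0.05 there were 0 of the 38 genes, and 1.73% of all genes. Kif23 had the smallest p, with an effect in NOD.Idd3 that was 0.76 above that in NOD (SE 0.37, limma, Benjamini-Hochberg adjusted p = 1). Mcm2 followed with 0.74 (SE 0.40). With SE of this size the test does not show that the strains responded alike. The NOD median was -0.95 without the unstimulated NOD array numbered 1 and -0.0047 without that numbered 2, and the median difference between the effects went from 0.16 to 0.60 and -0.28.

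**Figure D3:**
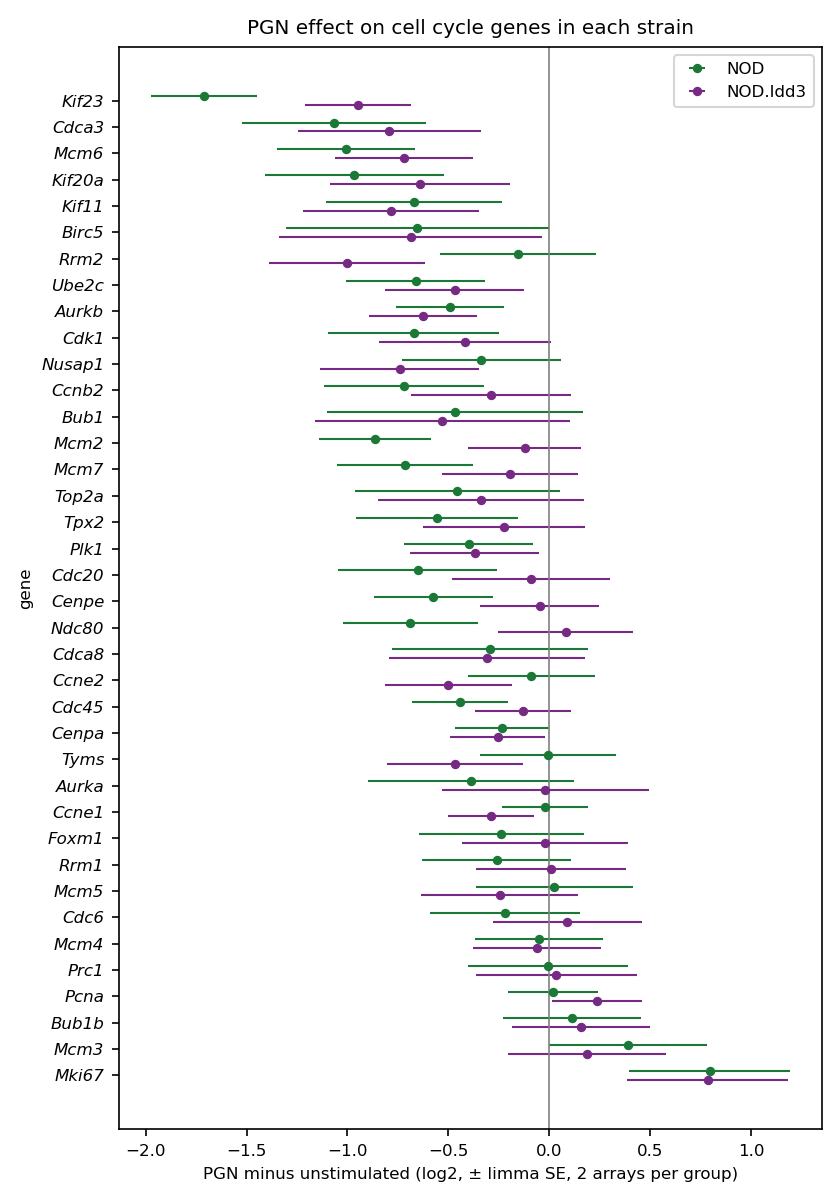
Log2 difference of PGN minus unstimulated (x axis, points with limma SE bars, 2 arrays per group) for the 38 genes (y axis, ordered by the averaged effect) in NOD (green) and NOD.Idd3 (purple). Kif23 is at the top with -1.71 and -0.95, Mki67 at the bottom with 0.80 and 0.79, and most other points lie below 0 with bars that overlap between the strains.

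Between the strains, averaged over the conditions, 33 of the 38 genes had higher means in NOD.Idd3, with a median difference of 0.48 against -0.03 over all genes, of which 44.6% were higher. None was called, as was none of all genes (0%), and with the replicate block 0.148% of all genes and none of the 38 were called. At an unadjusted p under 0.05 there were 13 of the 38 genes, all higher in NOD.Idd3, beside 6.46% of all genes in either direction. The median was 0.33 unstimulated (33 higher, beside 43.5% of all genes) and 0.54 with PGN (35 higher, beside 49.1%), again with none called and 0% of all genes called in either condition. In 15 of the 38 genes NOD.Idd3 was above NOD in all 4 pairs of same-numbered arrays, and in none below in all 4, which held for 8.33% and 9.89% of all genes.

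Ube2c had the smallest p. It read 7.98 and 8.65 in unstimulated NOD against 9.18 and 9.34 in unstimulated NOD.Idd3, and with PGN 7.21 and 8.10 against 9.01 and 8.57. The lowest NOD.Idd3 array was below the highest NOD array, and the averaged difference was 1.04 (SE 0.24, limma, Benjamini-Hochberg adjusted p = 0.544). Prc1 was the one gene of the 38 whose strains did not overlap, beside 1.08% of all genes higher without overlap in NOD.Idd3. It read 7.74, 8.83, 7.81 and 8.76 on the NOD arrays, unstimulated first, and 9.11, 8.92, 9.09 and 9.01 on those of NOD.Idd3. The NOD.Idd3 values lay close together and the NOD values were split by replicate number, with a difference of 0.75 (SE 0.28).

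The genes with the next smallest p also had low NOD arrays. Aurkb, with the values above, differed by 0.67 (SE 0.19, limma, Benjamini-Hochberg adjusted p = 0.627). Ndc80, part of the complex that ties kinetochores to microtubules, read 6.42, 7.12, 5.64 and 6.52 in NOD and 7.15, 7.03, 7.05 and 7.30 in NOD.Idd3, a difference of 0.71 (SE 0.24). The NOD arrays numbered 1 were its lowest in each condition. Nusap1 read 7.52, 8.66, 7.41 and 8.09 in NOD and 9.11, 9.10, 8.66 and 8.06 in NOD.Idd3, a difference of 0.81 (SE 0.28). Mcm2 read 6.55, 6.95, 6.26 and 5.52 in NOD and 7.03, 6.82, 6.83 and 6.78 in NOD.Idd3, a difference of 0.54 (SE 0.20), and here the lowest array was the NOD array with PGN numbered 2. The other probe set of Mcm2 (mean 6.0 against 6.59) differed between the strains by 0.07, so this value depends on the probe set.

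By role, all 5 kinase and passenger genes, all 5 checkpoint and anaphase genes, all 6 spindle and kinetochore genes and both of Mki67 and Top2a had higher means in NOD.Idd3. Median differences were 0.77, 0.59, 0.61 and 0.51. The medians were lower for the 8 origin and helicase genes (0.23, 7 higher) and the 4 nucleotide and clamp genes (0.11, 2 higher). No member of any role was called, and the roles were not tested against each other.

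Within replicate numbers the strain difference was uneven. Among arrays numbered 1, the median over the 38 genes was 0.69 unstimulated and 0.77 with PGN. In each, 34 genes were higher in NOD.Idd3, beside 44.9% and 46.1% of all genes. There, 10 and 13 genes were more than doubled, beside 1.17% and 1.06% of all genes. Among arrays numbered 2 the medians were 0.03 (21 higher) and 0.25 (31 higher), beside 48.7% and 52.2% of all genes higher. More than doubled were 0 and 3 genes, beside 0.621% and 1.67% of all genes. These are single arrays, so neither value has a test. Without both NOD arrays numbered 1, an omission chosen after the data had been seen, the averaged median was 0.07 in place of 0.48. Without the unstimulated NOD array numbered 1 alone, the unstimulated median was -0.06 in place of 0.33.

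**Figure D4:**
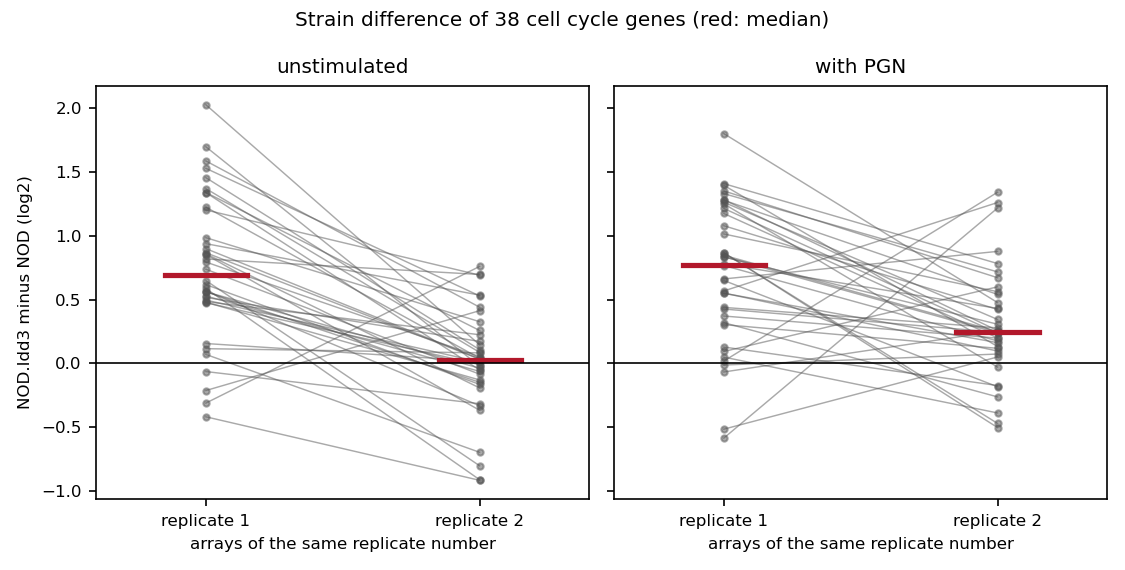
Log2 difference of NOD.Idd3 minus NOD for each of the 38 genes (y axis) among the arrays of each replicate number and condition (x axis), with medians drawn. The medians of 0.69 and 0.77 among arrays numbered 1 stand above those of 0.03 and 0.25 among arrays numbered 2.

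Markers of other cells also differed between the strains. The summed intensity of 5 measured B cell genes, none of them at 0, was 1188 to 4201 in NOD and 588 to 1229 in NOD.Idd3. Their median difference was -1.31. With the replicate block 3 of them were called lower in NOD.Idd3, beside 0.148% of all genes called. The 7 measured monocyte and macrophage genes had a median difference of -1.37, and 4 of them (Mrc1, C1qa, C1qb and C1qc) were called lower in NOD.Idd3 with the replicate block. The 8 neutrophil precursor genes had a median difference of 0.27, with 7 higher and none called. The 3′ minus 5′ signal of the Gapdh control probe sets, a sign of RNA integrity, was 0.88 to 1.16 in NOD and 0.72 to 0.80 in NOD.Idd3. That of Actb overlapped, with 0.43 to 0.58 in NOD and 0.22 to 0.46 in NOD.Idd3. Their part in the strain difference was not tested.

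Replicate number was itself a difference of the same size. The names of the NOD arrays numbered 2 and of the unstimulated NOD.Idd3 array numbered 1 carry a suffix that the labels do not explain. Within NOD this suffix and the number cannot be told apart. Arrays numbered 2 had higher means than those numbered 1 for 32 of the 38 genes, with a median difference of 0.43 against 0.03 over all genes, of which 54.9% were higher. None of the 38 was called, beside 1.26% of all genes. At an unadjusted p under 0.05 there were 18 of the 38, beside 17.9% of all genes. In 15 of the 38 the array numbered 2 was above that numbered 1 in all 4 groups, beside 16.1% of all genes. In 2 of them, Ccne2 and Kif23, it was below in all 4 groups, beside 9.33% of all genes.

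Rrm1 had the smallest p. Its arrays numbered 1 read 7.94, 7.71, 8.09 and 8.26, in the order unstimulated NOD, NOD with PGN, unstimulated NOD.Idd3 and NOD.Idd3 with PGN, and those numbered 2 read 8.75, 8.46, 8.77 and 8.62. The numbers did not overlap, which held for 2 of the 38 genes (Rrm1 and Mcm3) and for 3.67% of all genes in this direction, and the difference was 0.65 (SE 0.14, limma, Benjamini-Hochberg adjusted p = 0.0722). Top2a read 7.41, 7.08, 8.64 and 8.16 on arrays numbered 1 and 8.86, 8.28, 8.90 and 8.71 on those numbered 2, a difference of 0.87 (SE 0.21, adjusted p = 0.0955 by the same test). Mcm3 read 7.32, 7.55, 7.79 and 7.87 against 8.08, 8.63, 8.07 and 8.36, a difference of 0.65 (SE 0.16). For Top2a the gaps in NOD exceeded those in NOD.Idd3.

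The mitotic genes with small p repeated this. Cdk1 differed by 0.70 (SE 0.18) and Cdca3 by 0.74 (SE 0.20), with the array values given above. Cdc20 read 6.94, 6.49, 7.56 and 7.51 on arrays numbered 1 and 8.09, 7.23, 7.93 and 7.79 on those numbered 2, a difference of 0.64 (SE 0.17). Bub1 read 4.54, 4.66, 6.57 and 5.99 against 6.76, 5.72, 6.91 and 6.43, a difference of 1.02 (SE 0.29). Its NOD arrays numbered 1 were near the lower quartile of the array. Over the 38 genes the median gap between numbers was 0.97 in unstimulated NOD, 0.61 in NOD with PGN, 0.17 in unstimulated NOD.Idd3 and 0.07 in NOD.Idd3 with PGN. B cell markers moved with the number too, with Ms4a1, Cd79b and Blk (3 of 5 measured) called higher on arrays numbered 2. Of 7 measured T and NK cell genes 1 was called higher, and of 5 platelet genes 1 was called lower, beside 1.26% of all genes. Of 8 neutrophil precursor genes 7 were higher on arrays numbered 2, with a median difference of 0.17 and none called. The 3′ minus 5′ signal of Gapdh was lower on the array numbered 2 in all 4 groups (0.88 against 1.08 in unstimulated NOD, 0.92 against 1.16 in NOD with PGN, 0.75 against 0.80 in unstimulated NOD.Idd3 and 0.72 against 0.77 in NOD.Idd3 with PGN). The same signal of Actb was lower on the array numbered 2 in NOD (0.43 against 0.54 unstimulated and 0.48 against 0.58 with PGN). In NOD.Idd3 it was higher there (0.35 against 0.22 unstimulated and 0.46 against 0.265 with PGN). The part of the markers and of these signals in the replicate difference was not tested.

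The other genes of the pathway were read from a list of 108 cell cycle genes outside the 38, of which 105 were measured. For the averaged PGN effect 5 rose and 16 fell, 21 of 105 beside 11.3% of all genes, and 78 of the 105 had lower means (median -0.25). With the replicate block 9 rose and 24 fell, beside 16.9% of all genes. Among regulators of G1 and the E2F family, E2f5, a repressor E2F, rose by 2.15 (SE 0.17, limma, Benjamini-Hochberg adjusted p = 0.000251), and the G1 kinase Cdk6 rose by 0.93 (SE 0.17). The activator E2f2 fell by 1.77 (SE 0.33), Ccnd3 (cyclin D3) by 1.59 (SE 0.36), the phosphatase Cdc25b, which activates Cdk1, by 1.34 (SE 0.25) and the inhibitor of Cdk4 and Cdk6, Cdkn2c, by 1.02 (SE 0.19). The pocket proteins Rb1 and Rbl1 fell by 0.74 and 0.62, the E2F partner Tfdp1 by 0.89 and Ccng1 by 0.73.

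Among replication genes, Mcm10, which joins the helicase at origin firing, rose by 1.79 (SE 0.29), the polymerase alpha subunit Pola2 by 0.85 (SE 0.20) and Dbf4, the activator of the kinase Cdc7, by 0.63 (SE 0.17). Gins1, a helicase subunit, fell by 1.17 (SE 0.18), thymidine kinase Tk1 by 1.36 (SE 0.24), the checkpoint kinase Chek2 by 1.25 (SE 0.19) and the clamp loader subunit Rfc1 by 0.84 (SE 0.22). Of the mitotic genes, the checkpoint kinase Ttk fell by 1.09, the cytokinesis genes Ect2 and Anln by 1.13 and 1.04, and the tubulin binder Stmn1 by 1.08. With the array-name suffix as a term 15 of the 21 were called, beside 8.61% of all genes. With the mean of all probe sets 16 were called (11.7% of all genes), as with 32 added to each intensity (10.5%). Over all alternatives E2f5 ran from 1.12 to 2.28 and Chek2 from -1.40 to -0.60. When arrays were left out in turn, 9 of the 21 kept the call in every fit (E2f5, Mcm10, Cdk6, Gins1, Chek2, Tk1, E2f2, Cdc25b and Cdkn2c). The other 12 lost it in at least 1 fit, and between 9 (without the unstimulated NOD.Idd3 array numbered 2) and 18 (without the unstimulated NOD array numbered 1) of the 21 were called.

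**Figure D5:**
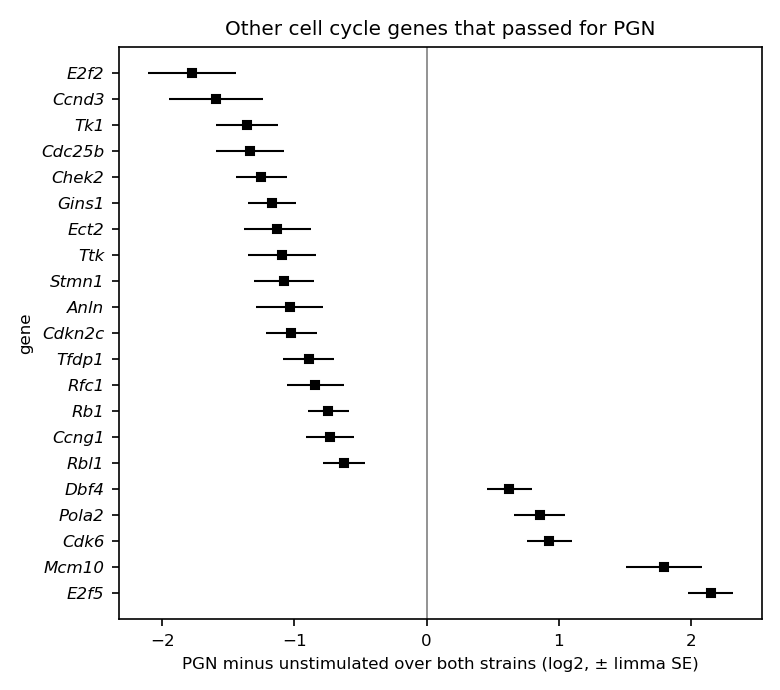
Log2 difference of PGN minus unstimulated averaged over the strains (x axis, squares with limma SE bars) for the 21 called genes (y axis) among 105 further cell cycle genes. E2f5 and Mcm10 lie furthest to the right at 2.15 and 1.79, and E2f2 furthest to the left at -1.77.

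In NOD alone E2f5 and Mcm10 rose and Gins1, E2f2 and Cdc25b fell, and in NOD.Idd3 alone E2f5 rose by 2.13 and Chek2 fell by 1.40. These are 5 and 2 of 105 genes, beside 3.94% and 3.14% of all genes. With the replicate block 3 rose and 7 fell in NOD, and 4 rose and 6 fell in NOD.Idd3, beside 8.72% and 6.63% of all genes. The shares called within each strain were thus near those of all genes. None of the 105 was called between the strains or between the replicate numbers. The smallest p between strains belonged to Gins1 (0.81 higher in NOD.Idd3, SE 0.18, limma, Benjamini-Hochberg adjusted p = 0.451), Rpa3 and Cep55 (0.59 and 1.19). Between the numbers it belonged to Ccna2 (0.79 higher on arrays numbered 2, SE 0.16, adjusted p = 0.0644 by the same test), Orc2 and Mcm10 (0.64 and -0.71).

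Many genes of this kind share short promoter elements, and the RefSeq promoter windows of GRCm38.p6 (300 bases, from 250 before to 50 after a gene's start) were searched on both strands. There were 34 windows for 32 of the 38 genes, out of 32851. Aurkb, Ccne2, Foxm1, Kif20a, Mcm4 and Tpx2 had none. The cell cycle homology element (CHR, searched as TTTGAA or TTCGAA) was in 61.8% of the 34 windows and 19.2% of all. The CCAAT box (CCAAT) was in 82.4% and 37.4%. An E2F element (TTTCCCGC, TTTCGCGC, TTTGCCGC or TTTGGCGC) was in 17.6% and 2.26%, namely in windows of Cdc6, Cdk1, Mcm3, Mcm5, Mcm6 and Mcm7. A match is only a run of letters, and binding was not measured.

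Stretches of 150 bases upstream are shown for genes that stood out above, with the letters of any match on either strand in capitals. Kif23 and Mcm6 are the genes whose arrays with and without PGN did not overlap, and Mki67 had the largest averaged rise with PGN. Ube2c had the smallest p between strains. Cdk1 and Top2a were among the 6 smallest p for replicate number, where none of the 38 genes was called. Coordinates are chr9:61946811-61946960 (minus strand) for Kif23, chr1:128359706-128359855 (minus) for Mcm6, chr7:135716451-135716600 (minus) for Mki67, chr2:164769779-164769928 (plus) for Ube2c, chr10:69352913-69353062 (minus) for Cdk1 and chr11:99024200-99024349 (minus) for Top2a.
Kif23: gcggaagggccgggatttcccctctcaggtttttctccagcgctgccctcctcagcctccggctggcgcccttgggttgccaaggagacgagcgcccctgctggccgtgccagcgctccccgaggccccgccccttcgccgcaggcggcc
Mcm6: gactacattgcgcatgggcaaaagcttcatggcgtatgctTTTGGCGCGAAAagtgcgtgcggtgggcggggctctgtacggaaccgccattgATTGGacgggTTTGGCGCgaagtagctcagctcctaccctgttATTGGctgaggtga
Mki67: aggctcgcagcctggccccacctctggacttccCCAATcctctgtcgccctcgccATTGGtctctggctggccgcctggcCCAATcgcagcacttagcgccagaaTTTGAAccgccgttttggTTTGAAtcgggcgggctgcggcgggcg
Ube2c: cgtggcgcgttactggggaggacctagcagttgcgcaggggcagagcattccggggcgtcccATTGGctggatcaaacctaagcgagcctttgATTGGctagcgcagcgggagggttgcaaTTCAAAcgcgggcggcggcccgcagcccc
Cdk1: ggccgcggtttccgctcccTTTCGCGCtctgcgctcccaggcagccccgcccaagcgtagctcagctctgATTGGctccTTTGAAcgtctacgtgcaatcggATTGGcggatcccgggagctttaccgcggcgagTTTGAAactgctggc
Top2a: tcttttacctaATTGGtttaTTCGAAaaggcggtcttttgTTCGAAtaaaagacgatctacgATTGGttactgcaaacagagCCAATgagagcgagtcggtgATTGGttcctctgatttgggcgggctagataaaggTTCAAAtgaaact
The Mcm6 stretch holds 3 E2F matches, of which 2 overlap on opposite strands, and 2 CCAAT matches, with no CHR. Those of Mki67 and Top2a hold 2 and 3 CHR matches and no E2F match, and that of Ube2c holds 1 CHR match and 2 CCAAT matches. Cdk1 has all 3 kinds in its stretch. The Kif23 stretch has no match, and the CHR and CCAAT matches of its window lie outside these bases. Mki67 and Top2a, which differed in sign with PGN, thus both carry CHR and CCAAT letters, and no link of the letters with the response was tested.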

How the data were processed

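For each array the deposited table gives an intensity per probe set, linear in scale (3.97 to 42906) and made by the authors with RMA, per the submitters' processing notes. Its version, chip definition and software: not given in the sources used here. RNA was biotin-labelled total RNA, per the labels' protocols. The log2 of each deposited intensity was taken. Of 45101 probe sets, control probe sets and 932 with several gene symbols were left out, and 34945 with a single symbol gave 18193 genes. Differences were contrasts of the 4 group means in limma 3.58.1 (R 4.3.3; 4 residual and 4.69 prior degrees of freedom), tested on simulated data first. The replicate difference came from a fit with the number as a term. The number was taken as pairing the arrays, from the correlation of same-numbered arrays and the shared date. Members and lists were chosen with earlier results of these data known. Genes shown on every array had the 6 smallest p of the averaged PGN, averaged strain or replicate difference, or the highest mean of their role (Bub1 was added after its values were seen). Other cell cycle genes were named where called, or by the 3 smallest p. Alternatives changed the block, array-name suffix, normalization, offset, filter, probe set choice, variance prior and weights, and left out arrays. The number of arrays limits the precision.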

Additional observations from a re-analysis of the deposited data

How the results depend on the processing

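The 41 differences of single genes that were run under the alternatives had been chosen in these same data, by a small p or by a call. None changed direction, which was likely beforehand and says nothing of the other genes. The uncalled medians of the difference in PGN effect and of the unstimulated strain difference changed sign when arrays were left out. The latter ran from -0.0587 to 0.78. With the replicate block 2 of the 38 genes were called for PGN in NOD, 1 in NOD.Idd3 and 4 averaged over the strains, in place of 1, 0 and 1, and over all genes 8.72%, 6.63% and 16.9%. The block changed no other count of the 38 genes, and among the further cell cycle genes 9 rose and 24 fell with PGN averaged over the strains, in place of 5 and 16. The averaged PGN count was 2 when genes below the 40th percentile were dropped (19.5% of all genes called), 2 with the mean of all probe sets (11.7%) and 2 with array weights (11%). It was 1 to 8 when arrays were left out in turn (median -0.61 to -0.14), beside 6.11% to 11.8% of all genes. In NOD it was 0 to 2 (median -0.95 to -0.0047), beside 0.423% to 4.82%. The NOD.Idd3 median of -0.27 became -0.0387 with the array-name suffix as a term, -0.26 without dim genes, -0.26 with the mean of probe sets, -0.22 without probe sets marked _x_at or _s_at, -0.24 after quantile normalization, -0.23 with an offset of 32, and -0.33 to -0.22 when arrays were left out. The median difference between the PGN effects was 0.42 with the suffix and -0.28 to 0.60 when arrays were left out. For the replicate number 3 genes were called with a variance trend (Birc5, Rrm1 and Top2a), beside 4.93% of all genes in place of 1.26%. Without both NOD arrays numbered 1, chosen after seeing the data, the counts were 2 for PGN in NOD, 6 averaged and 1 for the replicate number (3.27%, 10.5% and 2.82% of all genes), and the averaged strain median was 0.0672. Of 50 other probe sets of 27 genes, 14, 13 and 12 had the opposite sign for PGN, strain and number. The cause of these shifts was not tested.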
